A study of Rattus norvegicus with 6 samples.

Results

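The genes described here are 10 inflammatory mediators and feedback genes of NF-kappaB signalling, measured in fetal rat lung epithelial cells with and without mechanical strain. They are Nfkbia, Nfkb1, Icam1, C3, Ccl2, Ccl20, Cxcl1, Cxcl2, Il6 and Il18. They were chosen by symbol from the platform annotation, and all 10 are on the array, each with 1 probe set, out of 10411 genes with a probe set of their own symbol. Type II epithelial cells came from fetal rat lungs of embryonic day 19 and were cultured without serum on silastic membranes coated with collagen 1. The 3 control cultures stayed unstretched for 16 h. The 3 strained cultures were stretched for 16 h as well, by a cyclic strain of 5% (60 cycles per min, 15 min of every hour) that alternated with 45 min of steady 2.5% distension. Every strained culture was paired with a control culture of the same litter, with a different litter for each of the 3 pairs, and the rat strain, where a label gives it, is CD. Fetuses of both sexes were used, where the labels give the sex.

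NF-kappaB is a family of dimeric transcription factors that is held in the cytoplasm by inhibitor proteins and released when cytokines, microbial products or cell stress activate the IkappaB kinases. One of its targets is the gene of its own inhibitor, Nfkbia, so that activity limits itself, and Nfkbia mRNA is often read as a sign of recent activity. In lung epithelium the pathway is known for switching on chemokines that draw neutrophils and monocytes, the adhesion molecule ICAM-1 and acute phase proteins. The study asked which genes mechanical strain switches on in these cells.

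Sequence before the start sites that the RefSeq promoter table uses is shown first, because kappaB sites, the short DNA elements that NF-kappaB dimers bind, are what many of these genes are known for. Promoters of 9 of the 10 genes were found in that table (build GRCr8). For 4 of them the start used lies inside the span that RefSeq lists for the gene, by 235 bases in Nfkbia, 435 in Nfkb1, 157 in Icam1 and 20 in Ccl20, so that part or all of these windows is within the gene. The 250 bases before each start were searched on both strands for GGNNTTTCC, the core of many kappaB sites, and for its special case on the other strand, GGAAATTCC. GGNNTTTCC was present in 6 of the 9 promoters, against 5.19% of all 33469 promoters in the table. GGAAATTCC was in 3 of these 6 and in 0.287% of all. Both motifs were chosen after the matches of several kappaB motifs, most of them longer, in these promoters had been looked at. A longer and stricter form of GGNNTTTCC was used first and was replaced by this looser core. The share among the members is thus a description and not independent of that choice. The stretches below run 5′ to 3′ on the gene's strand, and capitals mark the letters of the motifs. Matches inside a gene's listed span are shown with 10 bases on each side.
Nfkbia, inside the gene, chr6:78597234-78597262, minus strand: ctggtcgggaGGACTTTCCagccactcag
Nfkbia, inside the gene, chr6:78597085-78597113, minus strand: tgactggcttGGAAATTCCccgcgcctga
Icam1, chr8:27829602-27829660, plus strand: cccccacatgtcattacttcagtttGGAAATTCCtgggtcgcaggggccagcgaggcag
Icam1, inside the gene, chr8:27829686-27829714, plus strand: gtctccatccGGAAATACCgaagccctca
Ccl20, chr9:91837045-91837103, plus strand: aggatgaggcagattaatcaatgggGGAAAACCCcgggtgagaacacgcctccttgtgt
Cxcl1, chr14:17479371-17479448, minus strand: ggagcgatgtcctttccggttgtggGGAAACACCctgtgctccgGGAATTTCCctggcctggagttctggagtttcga
Cxcl2, chr14:17467275-17467353, minus strand: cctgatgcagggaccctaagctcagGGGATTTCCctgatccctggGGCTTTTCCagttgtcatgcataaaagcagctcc
Il6, chr4:5894609-5894667, minus strand: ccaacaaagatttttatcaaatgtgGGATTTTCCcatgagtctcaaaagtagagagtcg

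The promoters of Nfkbia, Icam1, Cxcl1 and Cxcl2 hold 2 matches each. In Nfkbia they start 180 and 31 bases before the start used, and both lie inside the gene's listed span. In Icam1 they start 218 and 149 bases before it, and the second lies inside the gene's span. Cxcl1 and Cxcl2, whose genes are neighbours with no other listed gene between them, have their nearer matches 83 and 53 bases before the start. In Il6 the match starts 67 bases and in Ccl20 89 bases before it. Neither motif was found in these windows of Nfkb1, C3 and Il18. A match describes the letters only, and binding was not measured.

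None of the 5 tested genes passed the test for a difference between strained and control cells. For each of the 10 genes the control and strained signals overlapped, and over all tested probe sets only 6.07% had signals that did not. Of the 10 probe sets, 5 were bright enough to be tested (Nfkbia, Nfkb1, Icam1, C3 and Ccl2), and 5 were dim (Ccl20, Cxcl1, Cxcl2, Il6 and Il18), which means that they fell among the 40% of probe sets with the lowest mean signal over all 6 arrays. Among the tested members 0 of 5 passed an adjusted p of 0.05 in the limma fit, in which the litter pair was a block, and 0 of 5 had an unadjusted p under 0.05. Of all probe sets, 31 of 9519 tested probe sets, 0.326%, were called, and 9.44% had an unadjusted p under 0.05. All control arrays were processed in fluidics modules 1 and 3 and all strained arrays in modules 2 and 4, so that strain and fluidics module cannot be told apart in any difference given here. The mean differences of the 5 tested members lay between -0.28 and 0.09 on the scale of log2(signal + 16), with a median of -0.10, where the median over all tested probe sets was -0.02.

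**Figure D1:**
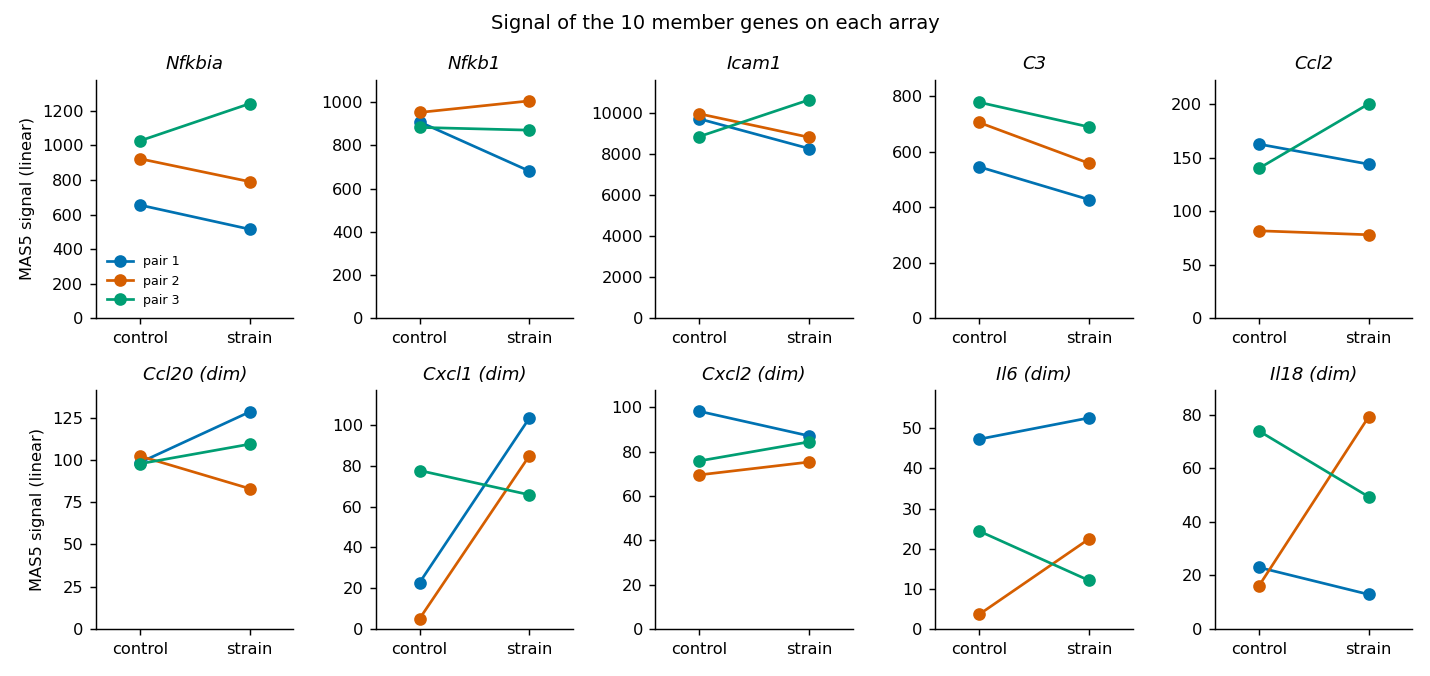
Linear MAS5 signal (vertical axis, from 0, with its own range in each panel) of the 10 genes in control and strained cultures; each line joins the 2 cultures of 1 litter pair. C3 was lower under strain in all 3 pairs, and every panel shows control and strained signals that overlap. Of all tested probe sets 6.07% had signals that did not overlap.

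Nfkbia, which encodes the inhibitor IkappaB alpha and has the 2 matches shown above, was measured at 654.9, 922.7 and 1026.0 in the control cultures of pairs 1, 2 and 3. The strained cultures of the same pairs gave 515.1, 790.4 and 1241.3. Strained cells were thus lower in pairs 1 and 2 and higher in pair 3, and the lowest and the highest of the 6 signals both came from strained cultures. The mean signal was 868 ± 192 (SD, n = 3) in control and 849 ± 367 (n = 3) in strained cells. The log2 difference was -0.10 ± 0.15 (SE, 3 pairs; limma, adjusted p = 0.902), with a 95% confidence interval from 0.749-fold to 1.17-fold of the control level. These intervals, and those given for other genes, take most of their variance from other probe sets (9 of 11 degrees of freedom).

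The signal of Nfkbia differed between pairs. Averaged over the 2 cultures of a pair, pair 3 was 1.92-fold above pair 1, with pair 2 between them, and the order was the same in control and in strained cells. The pair term of the same fit passed for Nfkbia (limma, adjusted p = 0.018) and for no other of the 5 tested members, where 16.3% of all tested probe sets passed it. This test was added after the values were seen. Its adjusted p was 0.064 when dim probe sets were kept in the fit, 0.097 when no variance trend was used and 0.12 without pair 1. The arrays of pair 1 were run on a different day from those of the other pairs, and pair 3 had its own chip lot, so litter, run day and chip lot cannot be told apart.

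Nfkb1 encodes the precursor p105, which is processed to the p50 subunit and is itself a target of the pathway. Its control signals were 909.2, 952.9 and 883.5, a range narrower than that of the strained signals, 681.5, 1006.3 and 870.9. Only the strained culture of pair 1 lay clearly below its control, while pairs 2 and 3 differed by 0.08 and -0.02 on the log2 scale. The log2 difference was -0.12 ± 0.14 (SE, 3 pairs; limma, adjusted p = 0.871), with an interval from 0.748-fold to 1.14-fold.

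Icam1, the adhesion molecule that leukocyte integrins bind and that alveolar epithelium is known to carry, was bright on all 6 arrays. The control cultures of pairs 1, 2 and 3 gave 9700.1, 9945.2 and 8839.7, and the strained cultures 8255.6, 8804.2 and 10625.6. As with Nfkbia, strained cells were lower in pairs 1 and 2 and higher in pair 3. The means were 9495 ± 581 (SD, n = 3) and 9228 ± 1241 (n = 3). The log2 difference was -0.05 ± 0.10 (SE; limma, adjusted p = 0.925), and its interval, from 0.836-fold to 1.12-fold of the control level, was the narrowest of the 5 tested members.

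C3, the central component of complement, which epithelial cells secrete, was the only member whose difference had the same sign in each pair. Control signals were 546.1, 706.0 and 778.9 in pairs 1, 2 and 3, and strained signals 428.0, 559.1 and 690.1. Each strained culture was below the control of its own litter, but the strained culture of pair 3 was above the control culture of pair 1, so the groups overlapped. The differences were -0.34, -0.33 and -0.17 on the log2 scale. Their mean was -0.28 ± 0.13 (SE, 3 pairs; limma, adjusted p = 0.564, unadjusted p = 0.059), with an interval from 0.673-fold to 1.01-fold. In the fit that kept dim probe sets the unadjusted p of C3 was 0.044, with a 95% confidence interval from -0.55 to -0.0100 on the log2 scale that leaves out 0, and the adjusted p was 0.651. Among all tested probe sets 16.5% were lower under strain in all 3 pairs. With 3 pairs an exact sign-flip permutation test cannot go below a two-sided p of 0.25, and none was run.

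Ccl2, the chemokine MCP-1 that attracts monocytes, lay just above the limit for dim probe sets, which corresponds to a mean signal of about 115.5. Control cultures gave 162.5, 81.6 and 139.8 and strained cultures 143.8, 77.9 and 200. The 2 cultures of pair 2 were the lowest of the 6, and the strained culture of pair 3 the highest. The log2 difference was 0.09 ± 0.23 (SE; limma, adjusted p = 0.955), and its interval from 0.742-fold to 1.52-fold was the widest of the tested members.

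**Figure D2:**
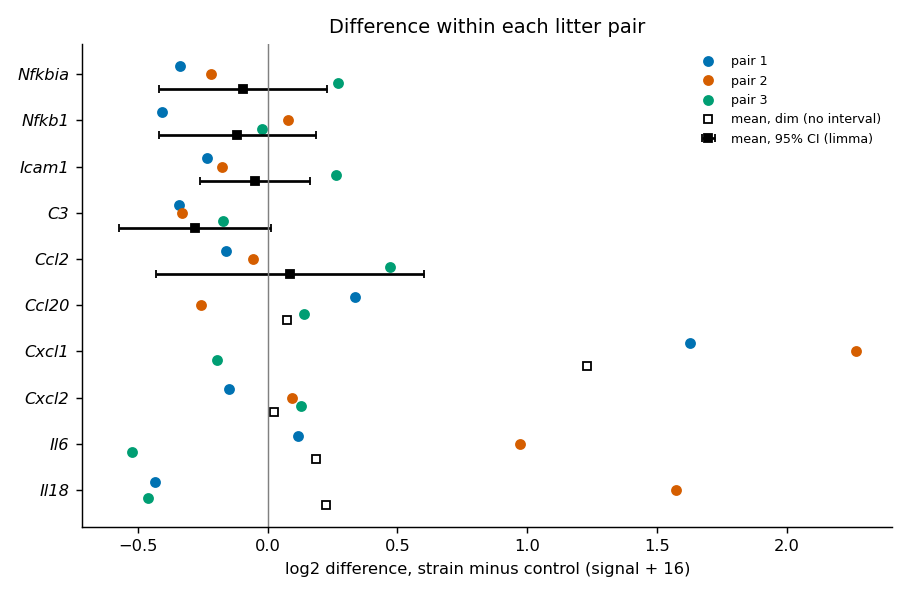
Log2 difference of strained minus control signal (log2(signal + 16), horizontal axis) in each litter pair for the 10 genes; filled squares with bars are limma means with 95% confidence intervals for the 5 tested genes, and open squares are means of the 5 dim genes, with no interval. The intervals of all 5 tested genes include 0, and Cxcl1 has 2 pairs far to the right and 1 pair just left of 0.

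Among the dim members Cxcl1 differed most. It encodes CINC-1, a neutrophil-attracting chemokine. Control cultures gave 22.7, 5.0 and 77.7 and strained cultures 103.4, 84.9 and 65.8. Strained cells were higher in pairs 1 and 2, by log2 differences of 1.63 and 2.26, and lower in pair 3, by -0.20. The strained cultures lay close together, whereas the control culture of pair 3 lay within their range and the other controls far below it. All 6 signals are below the limit for testing. In a fit with no filter on dim probe sets the log2 difference was 1.23 ± 0.47 (SE; limma, unadjusted p = 0.033, adjusted p = 0.622 over all probe sets). The size depends on the constant added before the logarithm: it was 1.91 with 1 and 0.64 with 64 in place of 16. It also depends on the pairs, with 0.71 without pair 2 and 1.94 without pair 3.

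Cxcl2, the neighbouring gene, encodes the related chemokine MIP-2. Its control signals were 98.2, 69.5 and 75.8 and its strained signals 87.1, 75.3 and 84.4, so that strained cells were lower in pair 1 and higher in pairs 2 and 3. Its mean log2 difference was 0.03, and the range of its strained signals lay within that of its control signals. The epithelial chemokine gene Ccl20, whose product attracts dendritic cells and lymphocytes through CCR6, lay just below the limit for testing. Control cultures gave 98.5, 102.4 and 97.8 and strained cultures 128.5, 83.1 and 109.4. The strained signals spread wider than the control signals, above and below them, with a mean log2 difference of 0.07.

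The cytokine genes Il6 and Il18 had low signals throughout. Il6 encodes the cytokine that drives the acute phase response. Its control signals were 47.3, 3.6 and 24.4 and its strained signals 52.6, 22.4 and 12.1. Strained cells were higher in pairs 1 and 2 and lower in pair 3, with a mean log2 difference of 0.19. Il18 encodes a cytokine that is stored as an inactive precursor and cut by caspase-1. Its control signals were 23.0, 16.0 and 74.0 and its strained signals 12.9, 79.2 and 49.4. It was higher under strain only in pair 2, with a mean log2 difference of 0.23. With no filter on dim probe sets, the adjusted p-values of Ccl20, Cxcl2, Il6 and Il18 in limma lay between 0.951 and 0.994. Leaving out 1 pair turned the sign of all 4: the lowest values were -0.058 for Ccl20, -0.026 for Cxcl2, -0.20 for Il6 and -0.45 for Il18. No detection call entered the analysis, and whether these transcripts were above background could not be judged.

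No tested member was called within a run day. On the run day of pair 1 no other pair was processed, which leaves nothing to test there. Within the other run day, that is over pairs 2 and 3, the log2 differences were 0.03 for Nfkbia, 0.03 for Nfkb1, 0.04 for Icam1, -0.25 for C3 and 0.21 for Ccl2. The first 3 of these are on the other side of 0 from the values over all pairs. Adjusted p-values of the 5 members stayed at 0.358 or above in every setting tried.

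A direction by pair was shared by several members. Nfkbia, Icam1 and Ccl2 were each lower under strain in pairs 1 and 2 and higher in pair 3. This order of signs held for 3 of the 5 tested members and for 16.8% of all tested probe sets. It was noticed in the values and was not tested. Among the other genes of the pathway, described below, 10 of 58 tested probe sets had these signs. Of the alveolar type II markers 1 of 9 had them, and of the fibroblast and smooth muscle markers 1 of 9. Several leukocyte markers showed this order too: 6 of the 8 tested probe sets of a list of 15 leukocyte genes had these signs, among them Cd68 (249.4, 216.7 and 229.9 in control cells and 148.0, 168.3 and 267.5 in strained cells). Lyz2 and Csf1r did not. Lyz2, the brightest of the list, was lower in all 3 pairs, by -0.62, -0.48 and -0.11 (limma, unadjusted p = 0.012, adjusted p = 0.347). Csf1r was at 0.03, -0.25 and -0.02 in pairs 1, 2 and 3. The summed signal of the 12 leukocyte genes on the array was 3223.7, 3007.1 and 3868.7 in control cultures and 2258, 2263.6 and 3934.6 in strained cultures of pairs 1, 2 and 3. The 2 probe sets of Ptprc, the marker that defines leukocytes, were dim throughout, at 4.9 to 36.8. The part of leukocyte RNA in the members' differences was not tested. In bulk cultures fewer cells of a type and less RNA per cell cannot be told apart.

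Markers of the labelled cell type had signal, and so did markers of other cell types. Epcam, an adhesion molecule of epithelial cells, lay between 11147.7 and 13087.9, and the surfactant protein gene Sftpb between 349.6 and 512.4. The surfactant protein gene Sftpc gave 1111.0, 1358.0 and 1228.1 in control and 1632.7, 2418.8 and 1563.3 in strained cells. Its signal was higher under strain in all 3 pairs with no overlap of the groups, and it did not pass after adjustment (0.57 ± 0.12, SE; limma, unadjusted p = 0.00072, adjusted p = 0.120). Other type II genes went the other way. Sftpd and Abca3 were lower in all 3 pairs, at -0.20 ± 0.11 and -0.16 ± 0.12 (SE), and Sftpb was at -0.23 ± 0.16. Of the 9 tested probe sets of type II markers, 4 were higher and 5 lower on average. Both probe sets of Sftpa1 and that of Napsa were dim. The summed signal of 11 alveolar type II genes was 37851.8 to 41213.8 in control and 38916.1 to 40513.4 in strained cultures. The brightest of them were Epcam, Cdh1 and Krt8, with control means of 11636, 7336.5 and 7134. Sftpc had a control mean of 1232, so the sum says little about the surfactant genes. The summed signal of 12 fibroblast and smooth muscle genes was 24453.4 to 29875.7 in control and 19789.3 to 27384.3 in strained cultures. On average 8 of 9 tested probe sets of these genes were lower, where 53.9% of all tested probe sets were. Acta2, the smooth muscle actin gene, came nearest to a call among all markers (-0.66 ± 0.12, SE; limma, adjusted p = 0.051). Like C3 it was lower in all 3 pairs, and the part of these cells in the C3 difference was not tested. The collagen gene Col1a1 was higher in all 3 pairs on its brighter probe set (0.18 ± 0.09, SE, limma adjusted p = 0.597). On its other probe set it was at -0.05 ± 0.11. The other collagen genes of the list, Col1a2 and Col3a1, were lower in all 3 pairs. Col1a2 was at -0.61 ± 0.15 (SE; limma, adjusted p = 0.173) and -0.20 ± 0.14 on its 2 probe sets, and Col3a1 at -0.32 ± 0.15. Of the 9 tested probe sets of this list 5 were lower in all 3 pairs, where 16.5% of all tested probe sets were. Tagln, the brightest of these 12 genes, was at -0.09 ± 0.07, with mean signals of 13769 in control and 12964 in strained cells. Of 8 endothelial genes only Eng was tested, and Pecam1 lay between 10 and 43.3. The summed signal of 2 mesothelial genes was 398 to 612.8 in control and 466.1 to 602.6 in strained cultures.

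The other genes of the pathway were taken from 7 lists, with 96 genes and 124 probe sets on the array. Of these, 58 probe sets of 51 genes were tested. None was called (0 of 58 in limma), 4 had an unadjusted p under 0.05, which is 6.9% against 9.44% of all tested probe sets, and the control and strained signals of 2 did not overlap, where 6.07% of all tested probe sets did not. The median log2 difference over the 58 was -0.05, against -0.02 over all tested probe sets. On average 36 of the 58 were lower under strain, and 10 were lower in all 3 pairs. Of all tested probe sets 53.9% were lower on average and 16.5% lower in all 3 pairs. The counts of lower probe sets in each list below are to be read beside these shares.

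**Figure D3:**
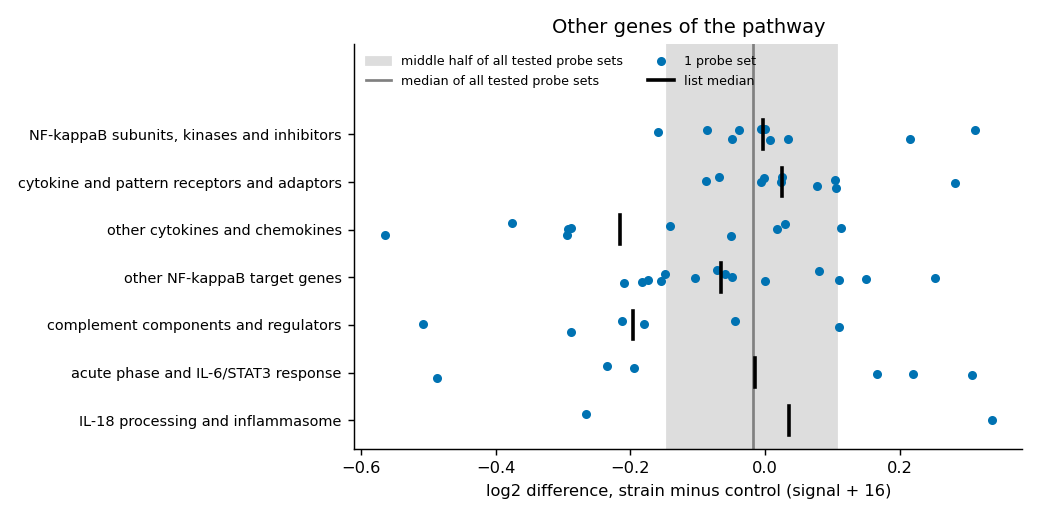
Log2 difference of strained minus control signal (log2(signal + 16), horizontal axis) for the tested probe sets of 7 pathway lists; points are probe sets, black bars list medians, the grey line and band the median and middle quartiles of all 9519 tested probe sets. The list medians lie between -0.21 for other cytokines and chemokines and 0.04 for IL-18 processing, and no point belongs to a called probe set.

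No tested gene of the pathway's machinery was called. Of the 20 subunits, kinases and inhibitors in this list only 10 had a probe set of their own symbol. Tnfaip3, Nfkbie, Cyld and Rel are among those without one and were not measured here. All 10 on the array were tested, and 4 were higher and 6 lower on average, with a median of 0.00. Rela, the p65 subunit with the main activating domain, was higher in all 3 pairs, from 1503.5, 1643.0 and 1249.4 in control to 1851.4, 2029.6 and 1290.1 in strained cells (0.22 ± 0.11, SE; limma, adjusted p = 0.622). Chuk, the kinase IKK alpha, was at 0.31 ± 0.21, with a confidence interval from -0.15 to 0.77, and Tnip1 and Tbk1, an inhibitor and a kinase of the pathway, at -0.16 ± 0.12 and -0.09 ± 0.18. For receptors and adaptors, 8 genes with 10 tested probe sets had a median of 0.02 and 0 calls. Il6st, the signalling chain of the IL-6 receptor, gave 0.28 ± 0.18 on one probe set and -0.09 ± 0.21 and 0.00 ± 0.15 on the others. The kinase gene Irak1, the TNF receptor gene Tnfrsf1a and the adaptor gene Tradd were at 0.11 ± 0.11, 0.10 ± 0.14 and -0.07 ± 0.15.

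The other cytokines and chemokines had the lowest median of the 7 lists, -0.21 over 10 tested probe sets of 9 genes, with 7 lower on average, 3 lower in all pairs and 0 called. Another 19 probe sets of this list were dim. Over all tested probe sets 53.9% were lower on average and 16.5% lower in all pairs. Cxcl3, which encodes a chemokine related to Cxcl1 and Cxcl2 and lies near them, with 3 listed genes between it and Cxcl1, gave 294.9, 341.1 and 275.1 in control and 173.7, 170.1 and 266.8 in strained cells. Its groups did not overlap, but pair 3 hardly differed, at -0.04 on the log2 scale. The mean log2 difference was -0.56 ± 0.20 (SE; limma, adjusted p = 0.387), and it was -0.38 without pair 2. The other 3 probe sets of Cxcl3 were dim, with mean log2 differences of 0.29, 0.04 and -0.10 and overlapping groups, so that probe sets of this gene disagreed. Cx3cl1, the membrane-bound chemokine fractalkine, gave 640.0, 873.3 and 836.8 in control and 572.5, 567.9 and 646.9 in strained cells (-0.38 ± 0.14, SE; limma, adjusted p = 0.407). The cytokine genes Il33 and Il1a were at -0.29 ± 0.22 and -0.29 ± 0.28, with a dim second probe set of each at -0.56 and 0.12.

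Other target genes of NF-kappaB had a median of -0.07 over 14 tested probe sets, with 10 lower and 4 higher on average and 0 called. Ier3, an early response gene, gave 6981.8, 6331.5 and 5587.2 in control and 6623.7, 5273.1 and 4925.7 in strained cells and was lower in every pair (-0.17 ± 0.08, SE; limma, adjusted p = 0.549). Birc3, an inhibitor of cell death, was at -0.21 ± 0.18 and Tapbp, a chaperone of antigen presentation, at 0.15 ± 0.13. The hyaluronan receptor gene Cd44 gave 0.25 ± 0.18 and -0.10 ± 0.14 on its 2 probe sets. The cyclooxygenase gene Ptgs2 and the adhesion molecule gene Vcam1 were dim, at 17.5 to 48.9 and at 2.6 to 31.6.

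Among complement genes, 6 tested probe sets of 5 genes had a median of -0.20, with 5 lower on average and 0 called, while 10 probe sets were dim. Cfi, the protease that inactivates C3b, gave 109.7, 124.2 and 249.0 in control and 102.1, 62.9 and 158.4 in strained cells. Like C3 it was lower in all pairs (-0.51 ± 0.24, SE; limma, adjusted p = 0.564). The receptor gene C5ar1 was at -0.29 ± 0.21, the complement inhibitor Cd55 at -0.21 ± 0.18 and -0.18 ± 0.16, and the serine protease gene Masp1 at 0.11 ± 0.26.

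**Figure D4:**
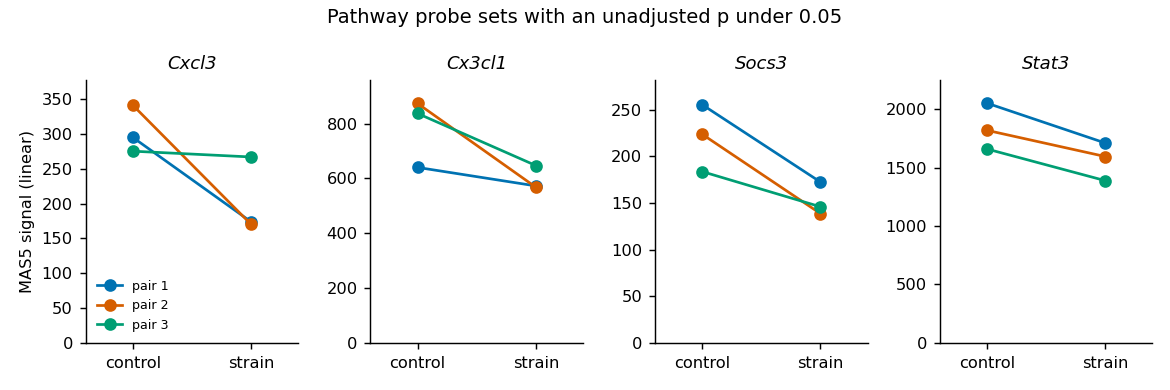
Linear MAS5 signal (vertical axis, from 0) of the 4 pathway probe sets with an unadjusted p under 0.05, in control and strained cultures; each line joins the cultures of 1 litter pair. All 4 were lower under strain in each pair, as were 16.5% of all tested probe sets, and Cxcl3 and Socs3 have groups that do not overlap. The p-value by which the 4 were picked favours differences of the same sign in each pair. None passed after adjustment.

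The acute phase and IL-6 response list, which lies downstream of Il6, had a median of -0.01 over 6 tested probe sets of 5 genes, with 3 higher and 3 lower on average and 0 called. Socs3, the feedback inhibitor of IL-6 signalling, gave 255.3, 223.6 and 183.6 in control and 172.4, 138.6 and 145.9 in strained cells, with no overlap (-0.49 ± 0.19, SE; limma, adjusted p = 0.444). Stat3, the transcription factor that induces it, was lower in all pairs on one probe set (-0.23 ± 0.11, SE; limma, adjusted p = 0.522) and at -0.19 ± 0.15 on the other. The acute phase gene Hp and the transcription factor gene Cebpb were at 0.31 ± 0.22 and 0.17 ± 0.12. For the processing of IL-18, the inflammatory caspase gene Casp4 was higher in all 3 pairs (0.34 ± 0.18, SE; limma, adjusted p = 0.612) and the adaptor gene Pycard was at -0.27 ± 0.22. Casp1 and Il18bp were dim.

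The genes whose log2 signals followed a member most closely over the 6 arrays were named for 3 members. For Nfkbia they were Kank3, Plekhb2 and Mylip, with Pearson correlations of 0.998, 0.997 and 0.997. For C3 they were Col6a3, Wdr46 and Nat9, at 0.997, 0.992 and 0.990. For Cxcl1 they were Sfpq, Washc5 and Pdlim1, at 0.992, 0.991 and 0.977. The 6 arrays share litters in pairs. Of the candidate probe sets, 107 of 8152 correlated above 0.95 with Nfkbia, 94 of 8152 with C3 and 14 of 8153 with Cxcl1.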

How the data were processed

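RNA from 6 cultures was hybridised to 6 Affymetrix rat arrays with a single biotin label. The deposited values are linear intensities of probe sets, given as the MAS5 5.0 signal per the submitters' processing notes, and the authors had brought every array to nearly the same 2% trimmed mean (500.129 to 500.148). Medians ran from 161.7 to 199. The labels' protocols state a column purification of the RNA, while the run notes of all 6 arrays say that none was used.

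Arrays were scaled to a trimmed mean of 500 and transformed as log2(signal + 16), a scale that understates differences at low signal. Left out were 57 control probe sets and the 40% of the other 15866 with the lowest mean, so that 9519 remained. The fit used limma 3.58.1 in R 4.3.3 with litter pair and group as terms, a variance trend on intensity and p-values adjusted by Benjamini-Hochberg across the 9519 probe sets, and was tested on simulated data. The pairs come from the series' design text and the titles. Same-numbered arrays deviated together from their group means (correlations 0.51, 0.47 and 0.44), and the other 6 combinations lay between -0.35 and -0.12. Cultures, not fetuses, are the replicates, and precision is limited by the number of arrays.

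The members, lists and settings were chosen with earlier results of these data known. Every member is named, with called genes and the smallest p of each pathway list until 4 genes, the defining cell type markers, and up to 3 profiles most like Nfkbia, Cxcl1 and C3. The dim genes Ptgs2, Vcam1, Casp1, Il18bp, Sftpa1 and Napsa were named after their values were seen. So were Eng, Lyz2, Csf1r, Tagln, Cdh1, Krt8, Sftpd, Abca3, Col1a2 and Col3a1. Sequences are from RefSeq (GRCr8).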

Additional observations from a re-analysis of the deposited data

How the results depend on the processing

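Over 13 other settings no member and no gene of the 7 pathway lists was called. The lowest adjusted p in limma was 0.358 for a member, C3 without pair 3, and 0.12 for a named pathway gene, Cxcl3 without pair 3. The count over the whole table, 31, fell to 5 when dim probe sets were kept, 0 with no replicate block (the pair term left out), 1 with run day as the block and 1 without the variance trend, and it ranged from 9 to 52 when a pair was left out. The cause was not tested. Some signs turned when a pair was left out, also of values such as -0.29 for Il1a and -0.27 for Pycard. Ranges of the log2 difference were -0.28 to 0.026 for Nfkbia, -0.21 to 0.029 for Nfkb1, -0.20 to 0.045 for Icam1 and -0.11 to 0.21 for Ccl2. They were -0.072 to 0.27 for Tnfrsf1a, -0.37 to 0.12 and -0.048 to 0.027 for 2 probe sets of Il6st, -0.56 to 0.046 for Il1a, -0.48 to 0.034 for a probe set of Cd55, -0.21 to 0.48 for Masp1, -0.34 to 0.041 for a probe set of Stat3 and -0.42 to 0.013 for Pycard. With quantile normalization a probe set of Il6st was at 0.042. The other values of named genes, 125 for members and 393 for pathway genes, kept their direction and call, except that dim members, which have no call, moved by less than the spread between pairs and changed sign for 4 genes: -0.058 to 0.24 for Ccl20, -0.026 to 0.11 for Cxcl2, -0.20 to 0.54 for Il6 and -0.45 to 0.57 for Il18 when a pair was left out. For dim probe sets signal over background is the limit.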
